A study of Caenorhabditis elegans with 4 samples.

Results

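The superoxide dismutases, catalases and peroxiredoxin of Caenorhabditis elegans were examined in second-stage (L2) larvae. The members were chosen by name, as 9 listed genes (sod-1 to sod-5, ctl-1 to ctl-3 and prdx-2), and were measured where a probe carried that gene as its only name in the platform's annotation. Of these, 6 had such a probe, 7 probes in all, among 14943 genes named in this way on 21632 probes. They were sod-2, sod-3, sod-4, sod-5, ctl-1 and ctl-2, and each had a value on every array. No probe was named for sod-1, ctl-3 or prdx-2, which were not analysed here.

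The tested material was RNA of wild-type L2 larvae in 4 preparations (preps 1 to 4), each hybridised on its own 2-colour array. The partner on every array was a mixed wild-type reference RNA, of unstated make-up. Strain, culture temperature, food and any treatment are not given in the labels, nor is whether the preps came from separate cultures. A p-value here measures the spread between these preps, possibly technical, without that of the reference. Each value below is a log2 ratio centred on the median of its array, so that 1 is a doubling and 0 is the level of the typical probe.

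By the labels, L2 is in channel 2 and the reference in channel 1, with no dyes named. Positive ratios are read from this as likely higher in L2, and all directions below depend on it. The yolk protein genes vit-2, vit-5 and vit-6 are expressed in the adult intestine and served as a check of it. Their means were -5.59, -5.42 and -5.03. Of 30 major sperm protein genes, 28 were below the reference at an adjusted p under 0.05 in limma's test, and 0 above it. The highest mean of the 30 was -0.33. Pairs of arrays correlated at r between 0.476 and 0.728 over all probes, and prep 3 had the lowest mean correlation with the others (0.510, against 0.623 to 0.654). In bulk RNA, fewer cells of a type and less RNA per cell cannot be told apart.

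Superoxide dismutases turn superoxide, a by-product of respiration, into hydrogen peroxide and oxygen. Catalases and peroxiredoxins then remove the hydrogen peroxide, catalases by splitting it into water and oxygen. In C. elegans, sod-1 and sod-5 encode copper/zinc enzymes of the cytosol, sod-4 an extracellular or membrane-bound copper/zinc enzyme, and sod-2 and sod-3 manganese enzymes of mitochondria. The product of ctl-2 is the main catalase of peroxisomes and that of ctl-1 a cytosolic catalase. Several of these genes, sod-3 best known among them, are activated by the transcription factor DAF-16 when insulin-like signalling is low, as in the dauer larva, an arrested stage entered after L2.

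No measured superoxide dismutase or catalase passed the test against the reference over the 4 preps. Of the 6 genes, 0 passed an adjusted p of 0.05 in limma's test over all 19941 features, where 14.7% of features passed, 4.85% higher and 9.87% lower. At an unadjusted p under 0.05 the count was 1 of 6, for sod-4, beside 32.3% of all features. The mean log2 ratios ran from -0.87 for sod-4 to 0.25 for ctl-2, with a median of 0.07 over the 6 genes and 0.01 over all features tested. In 1 of the 6 genes (sod-2) the 4 preps had the same sign, against 42.8% of features on all 4 arrays. When preps 1, 2, 3 and 4 were left out in turn, 0, 1, 1 and 0 of the 6 genes passed, beside 1.48%, 1.68%, 7.07% and 2.53% of features called higher and 4.51%, 4.53%, 9.55% and 6.21% called lower.

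**Figure D1:**
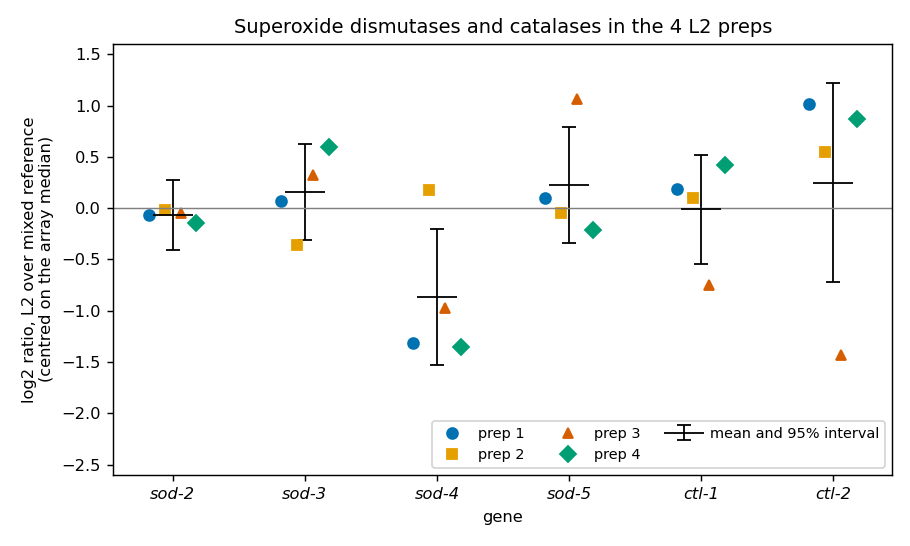
Log2 ratios of L2 over the mixed reference for each measured gene, centred on the array median; markers are the 4 preps, and bars give the mean with limma's 95% interval. The ratios of sod-2 lie between -0.14 and -0.02, those of sod-4 are below 0 except in prep 2 (0.18), and those of ctl-1 and ctl-2 are above 0 except in prep 3 (-0.75 and -1.43).

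Among the mitochondrial enzymes, sod-2 had the least spread. Its log2 ratios were -0.07, -0.02, -0.05 and -0.14 in preps 1, 2, 3 and 4. All lay just below 0, with a mean of -0.07 ± 0.05 (SD, n = 4), or 0.953-fold of the reference. Only 0.412% of features had a smaller SD, where the median SD was 0.37. The 95% interval of the mean, from -0.41 to 0.27, corresponds to 0.752- to 1.21-fold, so larger changes than these lay outside it. It is wider than the spread of the gene itself because limma draws its variance toward that of all features.

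The inducible mitochondrial enzyme sod-3 was read by a pair of probes. Averaged over both, its log2 ratios were 0.07, -0.36, 0.32 and 0.59 in preps 1, 2, 3 and 4, which is below the reference in prep 2 and above it in the other 3. The mean was 0.16 ± 0.41 (SD, n = 4; adjusted p = 0.607), with an interval of -0.31 to 0.62. The first probe gave 0.14, -0.16, 0.59 and 0.85 and the second 0.01, -0.56, 0.06 and 0.34. Both probes ordered the preps alike, lowest in prep 2 and highest in prep 4, while the first lay above the second in every prep, by 0.39 ± 0.18 (SD, n = 4). The sign of the mean therefore differed between the probes (0.35 and -0.04). Neither probe passed when probes were tested singly (adjusted p = 0.285 and 0.9).

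The 2 manganese enzymes were compared directly as the difference of their log2 ratios. That of sod-3 minus sod-2 was 0.14, -0.35, 0.37 and 0.74 in preps 1, 2, 3 and 4, a mean of 0.23 ± 0.45 (SD, n = 4). An exact two-sided sign-flip permutation test gave p = 0.375 (0.5 after Benjamini-Hochberg adjustment over 3 pairs). With 4 preps, 0.125 is the smallest p this test can give, so no pair could pass 0.05.

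The extracellular enzyme sod-4 had the lowest mean of the 6. Its log2 ratios were -1.32, 0.18, -0.98 and -1.36 in preps 1, 2, 3 and 4. In preps 1, 3 and 4 it stood at 0.402-, 0.508- and 0.39-fold of the reference, whereas prep 2 stood at 1.13-fold. The mean was -0.87 ± 0.72 (SD, n = 4), or 0.548-fold, with a 95% interval of -1.53 to -0.20. The adjusted p was 0.0836, so sod-4 was not past the threshold over the 4 preps. Without prep 2 it was past it, at -1.22 ± 0.21 (SD, n = 3; adjusted p = 0.024), when 4.53% of all features were called lower. Its adjusted p was 0.235 without prep 1, 0.164 without prep 3 and 0.223 without prep 4. With array weights, which gave preps 1 to 4 weights of 1.59, 0.86, 0.468 and 1.57, sod-4 also passed (-1.01, adjusted p = 0.0369), beside 12.7% of all features called lower and 8.42% called higher. The excess of prep 2 over the mean of the other preps was 1.4, and 1.88% of features on all 4 arrays had a larger one.

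The cytosolic enzyme sod-5 was above the reference mainly in prep 3. Its log2 ratios were 0.10, -0.05, 1.06 and -0.22 in preps 1, 2, 3 and 4. Prep 3, at 2.09-fold of the reference, was apart from the others, which lay within 0.22 of 0. The mean was 0.22 ± 0.57 (SD, n = 4; adjusted p = 0.541), and without prep 3 it was -0.05 (adjusted p = 0.821). An excess of prep 3 as large as that of sod-5 (1.11 over the mean of the others) was exceeded in 3.7% of features. Set against its fellow copper/zinc enzyme, sod-4 minus sod-5 was -1.42, 0.23, -2.04 and -1.14, a mean of -1.09 ± 0.96 (SD, n = 4). The gap was negative in preps 1, 3 and 4 (exact permutation p = 0.25, 0.5 after adjustment).

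Both catalases were above the reference in 3 preps and below it in prep 3. For ctl-2, the peroxisomal enzyme, the log2 ratios were 1.01, 0.55, -1.43 and 0.87 in preps 1, 2, 3 and 4. It stood at 2.02-, 1.46- and 1.82-fold of the reference in preps 1, 2 and 4, against 0.37-fold in prep 3. The mean was 0.25 ± 1.14 (SD, n = 4; adjusted p = 0.698), with an interval from -0.72 to 1.21, or 0.608- to 2.32-fold. Its SD exceeded that of 96.6% of features on all 4 arrays. Without prep 3 the mean was 0.81 ± 0.24 (SD, n = 3) and passed (1.75-fold, adjusted p = 0.0336), when 7.07% of all features were called higher. Without prep 1, 2 or 4 the adjusted p was 0.994, 0.878 and 0.962.

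The cytosolic catalase ctl-1 showed the same split of preps with smaller values. Its log2 ratios were 0.19, 0.10, -0.75 and 0.42 in preps 1, 2, 3 and 4, again with prep 3 alone below 0. The mean was -0.01 ± 0.51 (SD, n = 4; adjusted p = 0.98), and 0.24 ± 0.17 without prep 3 (SD, n = 3; adjusted p = 0.327). The sign of this mean was positive with deposited, mean-centred, scaled or quantile-normalized values (0.03, 0.05, 0.05 and 0.04). The difference of ctl-1 minus ctl-2 was -0.82, -0.45, 0.68 and -0.44, so ctl-1 lay nearer to the reference in every prep. Its mean was -0.26 ± 0.65 (SD, n = 4; exact permutation p = 0.5, also 0.5 after adjustment). The catalase genes are close copies of each other, and the arrays' hybridisation may not separate their transcripts fully, which was not tested.

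The drop of prep 3 at ctl-2, 2.24 below the mean of the other preps, was among the largest on the arrays: 0.814% of features had a lower difference. At ctl-1 it was 0.99 and 8.31% of features had a lower one. The median of this difference over all features was 0.06 above the other preps. By gene order in the newer annotation, ctl-2, ctl-1 and ctl-3 lie side by side with no other protein-coding gene between them. The nearest measured genes were Y54G11A.7 and Y54G11A.4 beyond ctl-2, and ddl-3 and Y54G11A.9 beyond ctl-3. In prep 3 they had log2 ratios of 0.08, 0.44, -0.01 and 0.33. None of the 4 was as low in prep 3 as either catalase, and none passed the threshold over the 4 preps (adjusted p from 0.0624 to 0.606).

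**Figure D2:**
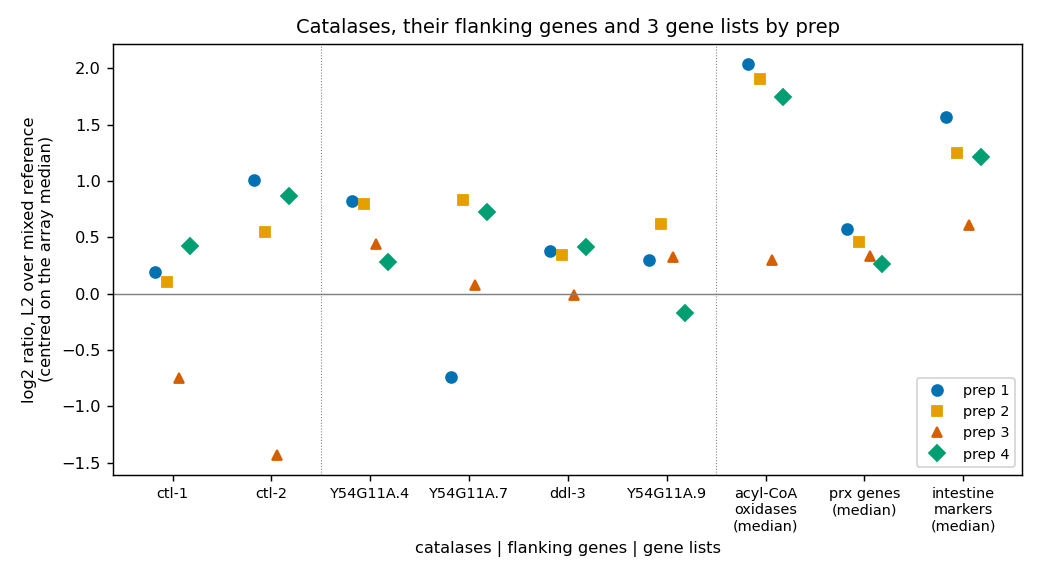
Log2 ratios of L2 over the mixed reference by prep for ctl-1 and ctl-2, for the nearest measured genes on either side of the catalase cluster, and as medians of 3 gene lists; markers are the preps. Prep 3 is the lowest prep for both catalases, for the acyl-CoA oxidases (0.30, against 1.75 to 2.04) and for the intestine markers (0.61, against 1.22 to 1.57), but not for the prx genes.

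Prep 3 was also low for the enzymes that load peroxisomes with hydrogen peroxide. Acyl-CoA oxidases open the peroxisomal shortening of fatty acids and release hydrogen peroxide as they do so. Of 7 such genes 6 rose and 0 fell, beside 4.85% of all features called higher and 9.87% called lower. Their median log2 ratio was 2.04, 1.90, 0.30 and 1.75 in preps 1, 2, 3 and 4. The prx genes, which encode the import and assembly factors of peroxisomes, had medians of 0.57, 0.46, 0.34 and 0.26. Markers of the intestine, a main tissue of peroxisomal fat oxidation, had medians of 1.57, 1.25, 0.61 and 1.22, and 7 of 13 rose and 0 fell. The highest of them were pept-1, a peptide transporter gene (2.23 ± 0.25), the intestinal actin gene act-5 (1.99 ± 0.52) and the acid phosphatase gene pho-1 (1.82 ± 0.43). Means below 0, not past the threshold, were those of elt-7 (-0.42), cpr-1 (-0.20) and asp-1 (-0.06). Prep 3 was the lowest prep in 7 of the 7 acyl-CoA oxidase genes and in 7 of the 13 intestine markers, and the highest in 3 of these markers. How many of all features had prep 3 lowest was not counted. Of the lists below, prep 3 had the lowest median in peroxisome assembly and oxidases (0.13), a list that includes these acyl-CoA oxidases. It also had the lowest median in NADPH oxidases and haem peroxidases (-0.16), copper and manganese handling (-0.11) and stress regulators (-0.91). It had not in the glutathione, thioredoxin and glutaredoxin systems (-0.01) or the genes activated by DAF-16 (-1.38). The part of the acyl-CoA oxidases or the intestine markers in the ratio of ctl-2 was not tested.

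The array titles place preps 1 and 2 in a different month from preps 3 and 4. Means within these pairs were 0.78 and -0.28 for ctl-2, 0.14 and -0.16 for ctl-1, -0.57 and -1.17 for sod-4, 0.03 and 0.42 for sod-5, -0.15 and 0.46 for sod-3, and -0.04 and -0.10 for sod-2. For ctl-2, ctl-1 and sod-3 the sign differed between the months. With the month as a random block none of the 6 passed, and sod-4 had an adjusted p of 0.0578. Of all 19941 features 3794 passed with this block, against 2936 without it. The correlation estimated within months was negative (-0.133).

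**Figure D3:**
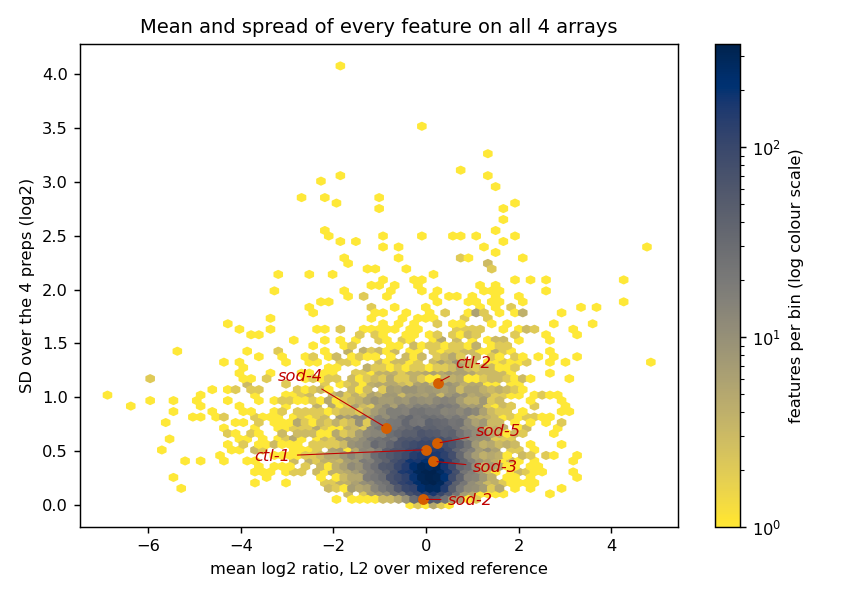
Mean log2 ratio of L2 over the mixed reference (horizontal) and SD over the 4 preps (vertical, log2 units) for all 19153 features on all 4 arrays, as bins coloured by the number of features, with the 6 measured genes as points. The genes lie near a mean of 0 apart from sod-4, and their SDs run from 0.05 for sod-2 to 1.14 for ctl-2.

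Genes with the most similar profile were found as the smallest root mean square difference of log2 ratios over the 4 preps among 14510 other named genes. Nearest to ctl-2 were dre-1 (0.103), an F-box gene of larval timing, and zyx-1 (0.156), a zyxin gene of muscle attachment, with 22 genes within 0.25 in all. For ctl-1 they were T10B11.9 (0.0282) and W03G11.4 (0.0285), and 331 genes lay within 0.25. The profile of sod-4 was the rarest, with 3 genes within 0.25, the nearest being K07A1.3 (0.191) and F47B8.8 (0.192). Closest to sod-5 were ndua-5 (0.0423), a subunit of respiratory complex I, and mrpl-32 (0.0847), a mitochondrial ribosomal protein, among 168 genes within 0.25. For sod-3 they were fbxb-3 (0.0785) and Y53G8AR.6 (0.0791), with 197 within 0.25. Around sod-2, 1441 genes lay within 0.25, led by tyra-3 (0.0256) and pde-5 (0.0379). This radius is wide beside the SD of sod-2 (0.05), so these genes need not be as flat. Only 0.412% of features had a smaller SD.

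Among the enzymes that share the work of the measured genes, calls were about as frequent as among all features (14.7%). Of 27 listed genes of the glutathione, thioredoxin and glutaredoxin systems 20 were tested, of which 2 rose, 1 fell and 17 did not pass, with a median of -0.01. The mitochondrial peroxiredoxin gene prdx-3 was at 0.88, 0.91, 1.1 and 0.76 in preps 1 to 4, a rise of 1.88-fold (0.91 ± 0.14, SD, n = 4; adjusted p = 0.011). All its preps lay above every prep of sod-2, the manganese enzyme of the same compartment. However, prdx-3 was picked as the highest of the list, and all preps of trx-2, of the same list, lay below every prep of sod-2. The glutathione peroxidase gene gpx-1 rose by 0.72 ± 0.13 (adjusted p = 0.0235) and trxr-1, the thioredoxin reductase with selenocysteine, fell to -0.98 ± 0.42 (also adjusted p = 0.0235). Fits on 3 preps lost prdx-3 when prep 1 was left out (adjusted p = 0.0532), gpx-1 when prep 1, 2 or 4 was (0.0879, 0.088 and 0.0944) and trxr-1 when prep 1 or 2 was (0.0879 and 0.08). Leaving out preps 1, 2, 3 and 4 in turn gave 0, 1, 2 and 1 rises, with 0, 0, 2 and 1 falls.

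Sources of hydrogen peroxide and the enzymes that use it had calls in both directions. Of 10 NADPH oxidase and haem peroxidase genes 2 rose, 1 fell and 7 did not pass, with a median of 0.43. Over all features 4.85% were called higher and 9.87% lower. The peroxidase genes skpo-3 (0.96 ± 0.57) and pxn-2 (0.88 ± 0.31), a peroxidasin of the extracellular matrix, rose, while skpo-1 fell to -2.40 ± 1.18, at -1.62, -4.12, -2.23 and -1.63 in preps 1 to 4. The dual oxidase gene bli-3, which supplies hydrogen peroxide for cuticle crosslinking, was at -0.10 on average and at -1.07 in prep 3. Leaving out preps 1, 2, 3 and 4 in turn gave 0, 0, 2 and 1 rises, with 1, 1, 1 and 1 falls. Lost in fits on 3 preps were skpo-3 when prep 1, 2 or 3 was left out (adjusted p = 0.143, 0.149 and 0.0596) and pxn-2 when prep 1, 2 or 4 was (0.0937, 0.0858 and 0.066).

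Of 21 genes listed under peroxisome assembly and oxidases, 8 rose and 2 fell, with a median of 0.47. Over all features 4.85% were called higher and 9.87% lower. Of the 8 rises, 6 were the acyl-CoA oxidase genes counted above. Of the 11 prx genes, 2 rose and 1 fell. Highest was the acyl-CoA oxidase gene acox-1.2, at 3.36, 4.08, 1.1 and 3.42 in preps 1 to 4 (2.99 ± 1.3, or 7.93-fold). Prep 3 was far below its other preps, and without it the mean was 3.62 (adjusted p = 0.00281). The acyl-CoA oxidase genes acox-1.4 (2.01 ± 0.72) and acox-3 (1.68 ± 0.95) came next. The D-aspartate oxidase gene ddo-3 was the lowest (-3.11 ± 0.87), followed by prx-14 (-0.93 ± 0.55). Leaving out preps 1, 2, 3 and 4 in turn gave 4, 4, 9 and 4 rises, with 1, 1, 2 and 1 falls. When prep 1, 2 or 4 was left out, acox-3 did not pass (adjusted p = 0.0896, 0.0931 and 0.0712), nor did prx-14 (0.067, 0.112 and 0.1). Of the 4 measured genes of copper and manganese handling, which deliver the metals of these enzymes and of cytochrome oxidase, sco-1 rose (0.87 ± 0.28, adjusted p = 0.0198), but not without prep 1 (0.0867) or 2 (0.0812).

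**Figure D4:**
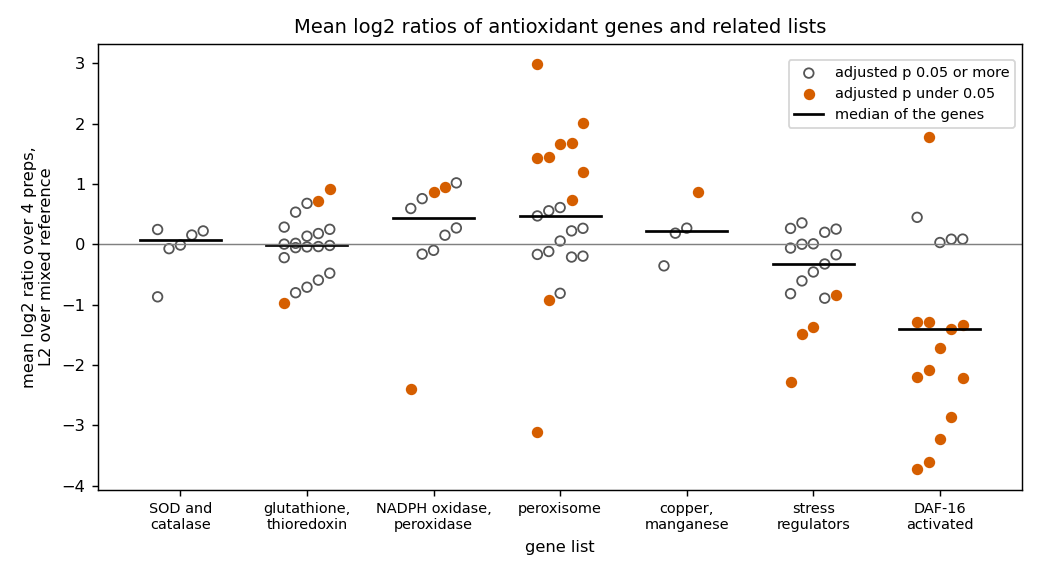
Mean log2 ratio of L2 over the mixed reference over the preps for each measured gene (points) of the superoxide dismutases and catalases and of 6 related lists; filled points had an adjusted p under 0.05, and lines are medians. The superoxide dismutases and catalases have no filled point, and the list of genes activated by DAF-16 lies lowest, with a median of -1.39.

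Genes that DAF-16 is known to activate under other conditions were mostly low in L2. Of 17 measured, 12 fell, 1 rose and 4 did not pass, beside 9.87% of all features called lower and 4.85% higher. Their median was -1.39, with medians of -1.75, -1.82, -1.38 and -1.01 in preps 1 to 4. The lowest were dod-3 (-3.73 ± 0.42) and the small heat shock genes hsp-12.6 (-3.61 ± 0.62) and sip-1 (-3.23 ± 0.35). Every prep of these 3 genes lay below every prep of sod-3, but they were picked as the lowest of the list, so this does not describe the list. The small heat shock gene hsp-16.1, which has near-identical copies, was at 1.12, 3.76, 1.15 and 1.08 in preps 1 to 4 (1.78 ± 1.32, adjusted p = 0.0483), and it did not pass when prep 1, 3 or 4 was left out (0.0908, 0.0759 and 0.0739). Without prep 2 it passed at a mean of 1.12 (0.0247). Every prep of hsp-16.1 lay above every prep of sod-3, but it was picked as the only rise of the list, so this does not describe the list. Leaving out preps 1, 2, 3 and 4 in turn gave 9, 9, 11 and 10 falls, with 0, 1, 0 and 0 rises.

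Of 17 regulators of stress responses 0 rose and 4 fell, beside 4.85% of all features called higher and 9.87% lower. Their median was -0.32, and -0.91 in prep 3 against -0.26 to -0.10 in the others. Examples were hcf-1 (-1.48 ± 0.59) and akt-1 (-1.37 ± 0.68). The transcription factor genes daf-16 and skn-1, activators of several antioxidant genes, were at -0.89 and 0.01 and did not pass (adjusted p = 0.083 and 0.976). Leaving out preps 1, 2, 3 and 4 in turn gave 2, 1, 4 and 3 falls. In these fits hcf-1 did not pass when prep 2 was left out (0.0515), nor akt-1 when prep 1 (0.0614) or prep 2 (0.0837) was.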

How the data were processed

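The values are log2 ratios of 2-colour arrays, deposited by the authors as the series' value table. Base 2 was read from the values, since ratios below 0.9 fell, after taking the antilog, within 0.05 thousandths of whole thousandths in 100% of cases on each array. Sources used here give no scanner, dyes, background correction or normalization, so the authors' scaling is unknown; the deposited medians were 0.0158, 0.0580, 0.0552 and 0.0186. Depth has no meaning for arrays, and the number of arrays (4) limits the precision. Intensities were not used here.

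By the platform's annotation, 16450 probes had 1 gene, 247 several and 4935 none, and 16360 matched a newer gene table (WBcel235) by gene ID with 0 changed symbols. Coordinates are left out because no build of the array is given. No probe, promoter or protein sequence was used here.

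Each array was centred on its median, probes of a gene were averaged, and every feature with 3 or more values was tested in limma 3.58.1 under R 4.3.3 (lmFit, eBayes, two-sided) as the mean against 0, with Benjamini-Hochberg adjustment over all features and a threshold of 0.05. The reference counts as 1 control sample. The fit was checked on simulated data. It recovered 0%, 30%, 78% and 94% of simulated log2 changes of 0.5, 1, 2 and 4 (n = 50 each). The simulation had 108 calls, against 2936 in the data, so these shares need not hold for the data. Fixed pairs of related members were compared with an exact sign-flip permutation test, and 3 of 7 pairs were measured.

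Members, lists and rules were chosen with earlier results of these data known. Named genes are all members, up to 3 highest and 3 lowest genes past the threshold in each list, the vitellogenins, and the 2 nearest profiles of each member. Of the genes this rule names, 1 is not reported here. Also named, after their values were seen, were bli-3, daf-16, skn-1 and the genes flanking the catalases. Genes of several copies may cross-hybridise. Alternatives were other centring and scaling, a robust fit, array weights, testing against 1.5-fold, single probes, other minimum numbers of arrays, a limit of 6 on log2 ratios, the month as a block and leaving out each prep. Centring within runs of 676 neighbouring probes, and all alternatives for the pairs, were added after seeing the data. Figures were drawn with Python 3.11.15 and matplotlib 3.10.9.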

Additional observations from a re-analysis of the deposited data

Results flagged for a closer look

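Of 30 genes checked for a prep far from the others, 2 had one whose gap to the nearest prep was above Dixon's 95% critical value for 4 samples, and chance flags about 1 in 20. The small heat shock gene hsp-16.1 stood at 3.76 in prep 2, a gap of 0.976 of the range. The small heat shock gene hsp-12.6 stood at -2.69 in prep 1, a gap of 0.922. None of the 6 superoxide dismutases and catalases was past this limit, and ctl-2 in prep 3 came nearest, at 0.811.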

How the results depend on the processing

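Of 103 values of the 6 genes under alternatives, 91 kept their direction and side of the threshold, 9 changed sign and 3 newly passed. The count of 0 genes past the threshold was 1 with array weights (sod-4 at -1.01, adjusted p = 0.0369) and ran from 0 to 1 without each prep. Newly past were also sod-4 without prep 2 (-1.22) and ctl-2 without prep 3 (0.81). Signs changed for ctl-1 with deposited values (0.0271), mean centring (0.0534), scale normalization (0.0528), quantile normalization (0.0394), array weights (0.16) and without prep 3 (0.24). They also changed for sod-5 without prep 3 (-0.0546), ctl-2 without prep 1 and the second sod-3 probe (-0.0401). Over the fits without 1 prep, the means ran from -0.15 to 0.24 for ctl-1, from -0.05 to 0.37 for sod-5 and from -0.00617 to 0.81 for ctl-2. The 23 values of pair differences under alternatives held 0 changes of sign. The cause was not tested. Of all 2936 calls (968 higher, 1968 lower), the count was 652 against a fold of 1.5 (149 and 503), and 1679 were higher with array weights. Without each prep the counts ran from 1157 to 3202 in all, 285 to 1362 higher and 872 to 1840 lower. Of 24 other genes named in the text past the threshold, the fits that left out preps 1, 2, 3 and 4 kept 14, 15, 22 and 19 past it, the test against 1.5-fold kept 12, and no alternative turned a sign. Centring within runs also lost gpx-1, trxr-1, skpo-3, pxn-2 and hsp-16.1, mean centring lost prx-14, and hsp-16.1 was lost with a robust fit and with at least 2 arrays. No fit with the array code letters in the titles, shared by preps 2 and 3, as a block is reported here. No paired analysis was possible because the preps form 1 group. Dim spots could not be told from bright ones.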
